A study of Canis lupus familiaris with 13 samples.

Results

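A list of 9 genes of the blood vessel wall, chosen by symbol, was followed through intratumoral treatment of canine tumors. They were 4 adhesion molecules that endothelial cells are known to induce, ICAM1, VCAM1, SELE and SELP, and 5 genes that mark endothelial cells more constantly, PECAM1, CDH5, VWF, KDR and TEK. All 9 were found among the 43427 genes of the count table, and all 9 passed the filter on low counts that left 20118 genes for testing. The inducible genes were set against the endothelial genes so that adhesion molecule levels can be read beside the amount of vessel RNA in each biopsy.

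Endothelial cells line blood vessels and, under inflammatory signals, display adhesion molecules on their luminal surface. P-selectin and E-selectin catch leukocytes from the flow by binding sialylated sugars, and ICAM1 and VCAM1 then hold them through leukocyte integrins before they cross the junctions formed in part by PECAM1 and VE-cadherin. In tumors these molecules bear on how many immune cells leave the blood. Some of the 9 genes are also expressed outside endothelium, such as ICAM1 in leukocytes and epithelium, VCAM1 in fibroblasts and macrophages, and PECAM1, VWF and SELP in platelets or their precursors.

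Every posttreatment biopsy came from a tumor injected with IMAX, a nanoparticle of a polyethyleneimine–lithocholic acid conjugate carrying paclitaxel, a microtubule drug, and a cyclic dinucleotide, an agonist of the STING pathway. Strand-specific RNA-seq libraries were made from 13 biopsies of 4 naturally occurring tumors in 3 companion dogs, with no untreated or vehicle-injected tumor among them. Dog RV had a soft tissue sarcoma, dog CL a cranial and a caudal mammary tumor, and dog BM a mammary tumor. The biopsies fell into before treatment (4 libraries, 1 per tumor), early (4 libraries, at 1 week for CL and BM but at 2 days for RV), and late (5 libraries, at 2 weeks for RV from the injection site and an adjacent site, at 1 month for both CL tumors and at 3 weeks for BM). The early biopsies followed the second dose, as did the late biopsies of CL and BM, and the late RV biopsies followed the third dose. Some of the injected material leaked from the RV tumor, and the study's histology of its 2-day biopsy described inflamed skin without identifiable tumor cells.

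Libraries held 11622444 to 29931125 counts on genes. Ribosomal protein genes took 3.42% to 17.5% of the counts, and the 2 ends of that range were the 2-day and the pretreatment RV libraries. Epidermis markers, keratins and cornified envelope genes, summed to 2010 CPM in the 2-day RV library and to between 26.2 and 139 CPM in the other 12 libraries. Each tumor had 1 library per time point apart from the 2 late RV sites, so within a tumor no difference between times has a replicate check. CPM are counts scaled to a common library size after adjustment by TMM, a method that makes the bulk of genes comparable between libraries. In bulk tissue, fewer endothelial cells and less RNA per endothelial cell cannot be told apart.

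Early after treatment, 8 of the 9 genes had fitted levels 2.20-fold to 8.55-fold above those before treatment, and the ninth, VCAM1, was 1.53-fold above. The 5 endothelial genes were as much a part of this as the inducible ones, with a median log2 difference of 1.95 for the endothelial and 1.60 for the inducible group, beside 0.25 over all genes tested. In the late biopsies the endothelial genes were at a median fitted log2 difference of 0.00 from before. By tumor their late medians ran from −0.64 in CL cranial to 0.64 in BM. VCAM1 followed another course, highest late in RV, at 131 and 229 CPM, and in CL caudal, and highest early in CL cranial and BM. None of these differences passed an adjusted p of 0.05 (edgeR's quasi-likelihood test, Benjamini-Hochberg method over all genes tested), so the values are given without calling any gene changed.

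**Figure D1:**
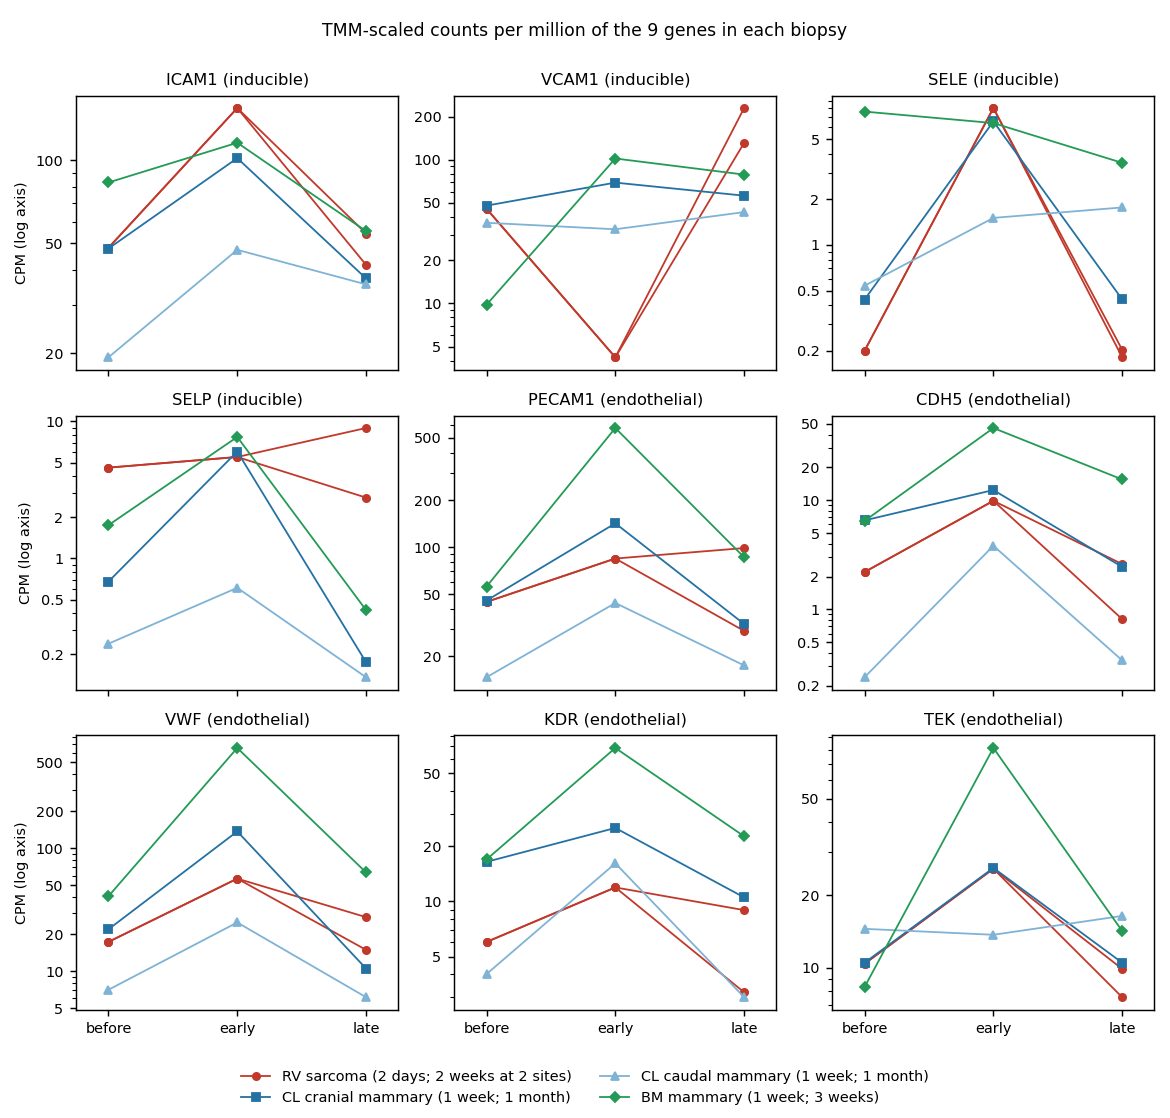
CPM of each gene (vertical log axis) before, early and late (horizontal axis), with 1 line per tumor and 2 late points for RV. The 5 endothelial genes peak early in nearly every tumor, highest in BM with VWF at 654 CPM, whereas VCAM1 is at 4.21 CPM in the 2-day RV biopsy and at 229 CPM in the late adjacent RV site.

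Of the endothelial genes, VWF had the smallest p-value. It encodes von Willebrand factor, the adhesive glycoprotein that endothelial cells store and release for platelet capture, and lies at chr27:7119622-7257688 (chromosome, start and end in the RefSeq annotation of UU_Cfam_GSD_1.0, as for all genes here). Before treatment VWF was at 17.3, 21.9, 7.06 and 40.7 CPM in RV, CL cranial, CL caudal and BM, and early it was at 56.6, 137, 24.9 and 654 CPM. Every tumor was higher early, by 3.28-fold to 16.1-fold, although the lowest early biopsy, CL caudal, lay within the range before treatment. The fitted log2 difference was 2.61 ± 0.49 (SE; adjusted p = 0.117). Late, VWF was at 14.9 and 27.5 CPM in the RV injection and adjacent sites, at 10.5 and 6.14 in the cranial and caudal CL tumors and at 63.5 in BM, which covers the range before treatment.

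PECAM1 encodes CD31, an immunoglobulin-family molecule at endothelial junctions that is also found on leukocytes and platelets (chr9:14705590-14758833). It was at 44.6, 45.5, 14.7 and 55.9 CPM before treatment in RV, CL cranial, CL caudal and BM, and at 84.5, 142, 43.9 and 578 CPM early. The early BM biopsy stood far above the other 3, and only the CL caudal biopsy lay below the highest value before treatment. The log2 difference was 1.95 ± 0.52 (adjusted p = 0.20), and 1.43 ± 0.49 without the 1-week BM library, a comparison added after the data were seen. Late values were 29.1 and 98.6 CPM in the RV sites, 32.2 and 17.5 in the cranial and caudal CL tumors, and 86.0 in BM.

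CDH5 encodes VE-cadherin, the cadherin of endothelial adherens junctions and largely restricted to endothelium (chr5:83417122-83449500). Levels before treatment were 2.20, 6.54, 0.24 and 6.47 CPM in RV, CL cranial, CL caudal and BM, and early levels were 9.88, 12.4, 3.83 and 45.9 CPM. All 4 tumors were higher early, and the CL caudal biopsy went from 4 to 94 counts, a ratio of 16.0 with a 95% exact interval for counting error of 6.05 to 60.0. The fitted log2 difference was 2.35 ± 0.66 (adjusted p = 0.233). Late levels were 0.81 and 2.60 CPM in the RV sites, 2.45 and 0.34 in CL cranial and caudal, and 15.5 in BM, where the late biopsy was 2.39-fold above the one before treatment.

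KDR encodes VEGF receptor 2, the main receptor through which VEGF-A acts on endothelium (chr13:48206381-48248022). It was at 6.00, 16.4, 4.01 and 16.9 CPM before treatment and at 11.9, 25.1, 16.1 and 68.5 CPM early in RV, CL cranial, CL caudal and BM. Again every tumor was higher early, from 1.53-fold in CL cranial to 4.04-fold in BM. Its log2 difference of 1.42 ± 0.46 had an adjusted p of 0.304. Late, KDR lay between 3.0 CPM in CL caudal and 22.6 CPM in BM.

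TEK encodes TIE2, the receptor of the angiopoietins that set vessel stability (chr11:45518478-45616970). Before treatment it had the narrowest spread of the 9 genes, at 10.4, 10.5, 14.5 and 8.33 CPM in RV, CL cranial, CL caudal and BM. Early it was at 25.7, 25.9, 13.7 and 81.2 CPM, so CL caudal, at 0.942-fold, was the one tumor that was not higher. The log2 difference was 1.54 ± 0.52 (adjusted p = 0.331), and without the 1-week BM library it was 0.97 ± 0.49. The 5 late biopsies lay between 7.56 and 16.4 CPM.

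Among the inducible genes, ICAM1 was higher early in every tumor. It encodes the ligand of the leukocyte integrins LFA-1 and Mac-1 (chr20:51216377-51225401). ICAM1 was at 48.2, 47.9, 19.3 and 83.2 CPM before treatment in RV, CL cranial, CL caudal and BM, and at 155, 102, 47.4 and 116 CPM early. The early ratio was largest in RV at 3.22-fold and smallest in BM at 1.40-fold, the reverse of the endothelial genes, for which BM had the largest mean difference. The log2 difference was 1.14 ± 0.34 (adjusted p = 0.269), and the late biopsies lay between 35.5 and 55.4 CPM, within the range before treatment.

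SELE encodes E-selectin, whose expression is known to be restricted to activated endothelium, and lies near SELP on chromosome 7 (SELE at chr7:28811713-28821538 and SELP at chr7:28881019-28918852). Before treatment SELE had 3, 9, 9 and 274 counts in RV, CL cranial, CL caudal and BM, or 0.20, 0.44, 0.54 and 7.61 CPM. Early it had 143, 163, 37 and 180 counts, or 8.03, 6.55, 1.51 and 6.39 CPM. RV and both CL tumors were higher and BM, which started highest, was at 0.84-fold with an interval for counting error of 0.692 to 1.02. The ratio in RV was 40.2, with an interval of 13.5 to 197 because only 3 counts stood before treatment. In CL cranial it was 15.0 (7.73 to 33.5) and in CL caudal 2.80 (1.33 to 6.60). The fitted log2 difference was 3.10 ± 1.12 (adjusted p = 0.364), and 1.71 ± 0.91 without the 2-day RV library. Late, both RV sites were at 3 counts again and CL cranial at 5, whereas CL caudal was at 1.77 CPM and BM was at 3.49 CPM.

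SELP encodes P-selectin, stored in the Weibel-Palade bodies of endothelium and the granules of platelets. It was at 4.60, 0.68, 0.24 and 1.75 CPM before treatment in RV, CL cranial, CL caudal and BM, and at 5.50, 6.03, 0.61 and 7.70 CPM early. The 3 mammary tumors were higher by 8.90-fold, 2.55-fold and 4.40-fold, the second of these on 4 and 15 counts with an interval of 0.814 to 10.6. RV was at 1.20-fold, with an interval of 0.870 to 1.65. The log2 difference was 2.06 ± 0.86 (adjusted p = 0.433). Late, each CL tumor had 2 counts and BM 10, while the RV sites were at 2.78 and 8.95 CPM, the latter the highest SELP level of all 13 libraries.

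VCAM1 encodes the ligand of the integrin VLA-4 (chr6:49789615-49807229) and differed from the other 8 genes in its course. It was at 45.6, 47.9, 36.4 and 9.78 CPM before treatment in RV, CL cranial, CL caudal and BM, at 4.21, 69.3, 32.8 and 102 CPM early, and at 131 and 229 in the RV sites, 56.2, 43.2 and 78.8 CPM late. The early biopsies went opposite ways, to 0.0922-fold in RV and 10.4-fold in BM, with the CL tumors at 1.45-fold and 0.903-fold. The fitted log2 difference early was therefore small against its error, 0.62 ± 0.89 (adjusted p = 0.779), and it was −0.17 ± 0.87 without the 1-week BM library and 1.21 ± 0.58 without the 2-day RV library. Late, all 4 tumors were above their own level before treatment, at 4.01-fold in RV, 8.06-fold in BM and 1.17-fold and 1.19-fold in the CL tumors. The late log2 difference was 1.41 ± 0.86 (adjusted p = 0.973).

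Counted over the 9 genes, 0 passed an adjusted p of 0.05 early against before in edgeR's quasi-likelihood test, beside 0.00497% of all genes tested, which is 1 gene. At an unadjusted p under 0.05, 8 of 9 were higher, all but VCAM1, beside 7.70% of all genes, and 6 of 9 were higher in 4 of 4 tumors, beside 10.8%. The exceptions were VCAM1, SELE and TEK. With DESeq2's Wald test 6 of 9 passed the adjusted threshold, ICAM1, SELE, PECAM1, CDH5, VWF and KDR, with adjusted p from 3.37e-05 to 0.0473, beside 5.05% of the genes to which DESeq2 gave an adjusted p, while no other alternative called any member in this comparison. In no gene did the early and the pretreatment groups stand apart without overlap. The share of all genes whose groups stood apart was not computed, so this is not read as a result about the members. With 4 tumors an exact sign-flip test cannot give a two-sided p under 0.125. CL cranial and CL caudal share a dog, so counts and SDs over the 4 tumors take that dog in more than once. With the dog as the unit that floor would be higher. The members share vessel RNA within a biopsy and are not independent replicates of the treatment.

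Late against before, 0 of 9 passed the adjusted threshold, as did 0% of all genes, and 0 of 9 passed an unadjusted p of 0.05, beside 1.28% of genes higher and 2.72% lower. DESeq2 likewise called 0, beside 0.0377% of genes. Only VCAM1 was higher in 4 of 4 tumors, beside 7.13% of all genes.

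Late against early, the 8 genes other than VCAM1 were lower at an unadjusted p under 0.05, beside 17.7% of all genes, whose median log2 difference was itself −0.35. Their adjusted p ran from 0.0603 for VWF to 0.110 for SELP in edgeR's quasi-likelihood test, so 0 of 9 were called, beside 0.00994% of all genes. In that fit the 2 late RV sites, from the same mass, entered as separate libraries. With the 2 sites summed, the adjusted p of the 8 genes in the same test ran from 0.153 for VWF and CDH5 to 0.224 for SELE. In the fit of all 13 libraries VWF was 6.08-fold lower late than early and CDH5 5.55-fold lower. With the 2 late RV sites averaged, 6 of 9 genes were lower in 4 of 4 tumors, beside 17.4%. Of these 6, SELP and PECAM1 were higher at the adjacent RV site than in the 2-day RV biopsy. They were at 8.95 against 5.50 CPM and at 98.6 against 84.5 CPM. VCAM1 was at a log2 difference of 0.79 ± 0.91 (adjusted p = 0.594), and at −0.15 ± 0.62 without tumor RV. DESeq2 called the 8 lower, beside 23.9% of all genes called in either direction. Without the 1-week BM library edgeR called 3 of the 9, ICAM1, SELE and VWF, at adjusted p of 0.0487, 0.0451 and 0.0361, beside 9.43% of all genes. With no filter on low counts it called 2, CDH5 and VWF, beside 3.06%, and with the pan-leukocyte covariate described below 1, VWF, beside 1.24%.

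**Figure D2:**
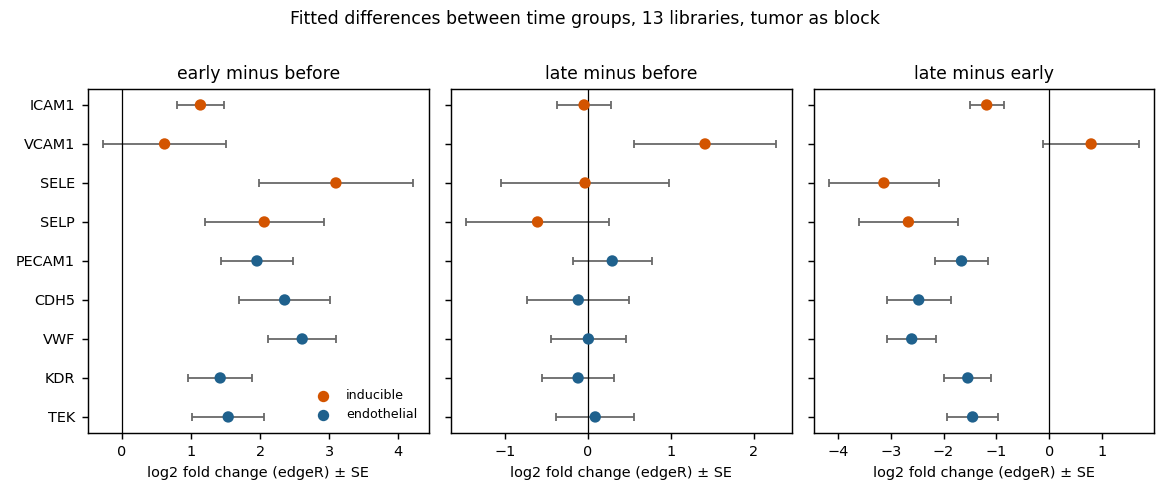
Fitted log2 fold changes (horizontal axis) with standard errors for each gene (vertical axis) in the 3 comparisons of time groups, 13 libraries with tumor as a block. Early minus before lies above 0 for all 9 genes, from 0.62 for VCAM1 to 3.10 for SELE, late minus before lies near 0 for all but VCAM1 at 1.41 and SELP at −0.61, and late minus early lies below 0 for all but VCAM1 at 0.79.

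Each inducible gene was next set against the mean of the 5 endothelial genes in the same biopsy, as a description without a test. Early, the endothelial mean was higher by 1.40, 1.42, 1.76 and 3.09 on the log2 scale in RV, CL cranial, CL caudal and BM, 1.92 ± 0.80 (SD, n = 4 tumors). ICAM1 moved almost with it in 3 tumors, at 0.28 above it in RV and 0.33 and 0.47 below it in CL cranial and caudal, and stood 2.61 below it in BM. Its mean distance was −0.78 ± 1.26, so relative to the endothelial genes ICAM1 was not higher beyond the spread between tumors.

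SELE lay on both sides of the endothelial genes. Relative to the endothelial mean its early difference was 3.37 in RV, 2.22 and −0.43 in the cranial and caudal CL tumors and −3.34 in BM, or 0.45 ± 2.99 over the 4 tumors. RV and CL cranial thus lay above the endothelial genes, and CL caudal and BM below them. For SELP the distance was above 0 in CL cranial alone, at 1.56, and was −1.15, −0.69 and −1.01 in RV, CL caudal and BM. VCAM1 was above the endothelial mean in BM alone, at 0.28, and was −4.81 in RV, −0.89 in CL cranial and −1.91 in CL caudal.

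Late, the endothelial mean was at −0.10, −0.71, 0.04 and 0.74 from before treatment in RV, CL cranial, CL caudal and BM, with a mean of −0.01 ± 0.60. VCAM1 was above it in 4 of 4 tumors, by 2.02, 0.94, 0.21 and 2.26, 1.36 ± 0.96 on average. Late SELP was below it in all but RV, where it was 0.22 above, with BM lowest at −2.57. ICAM1 and SELE were above it in 3 of 4 tumors each and below it in BM, by 1.32 and 1.84. Mesenchymal and fibroblast genes had late median log2 differences of −0.17, −1.25, −0.017 and 4.50 in RV, CL cranial, CL caudal and BM. The study's histology described areas of carcinosarcoma in the late BM mass. The part of such tissue in the late VCAM1 values was not tested.

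**Figure D3:**
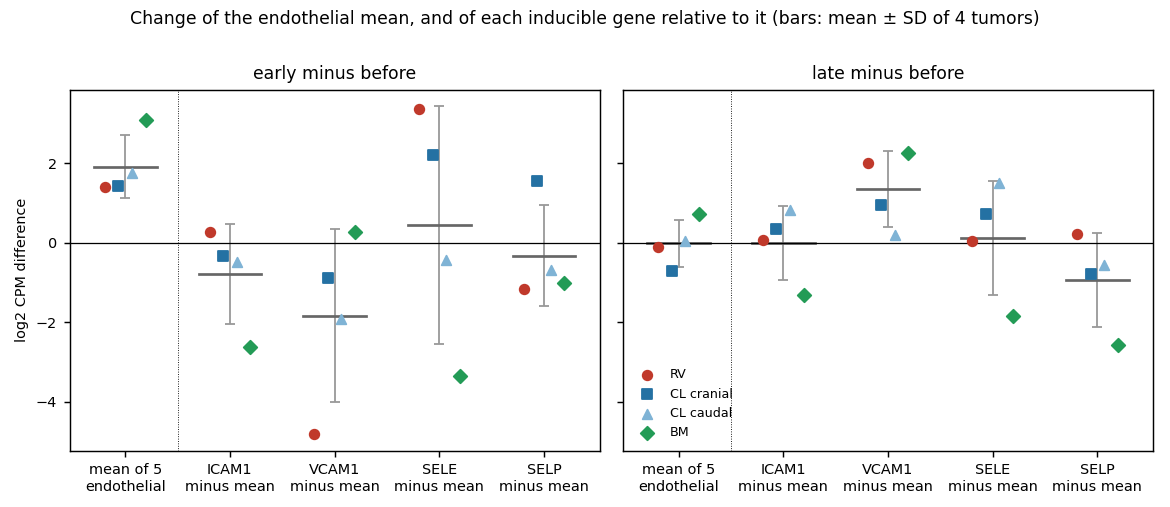
Log2 CPM differences (vertical axis) early and late against before, for the mean of the 5 endothelial genes (left of the dotted line) and for each inducible gene minus that mean, with 1 point per tumor and bars for mean ± SD. The endothelial mean is higher early in all 4 tumors (1.40 to 3.09), the inducible genes scatter on both sides of it early, and VCAM1 lies above it in all 4 tumors late.

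The sarcoma, biopsied at 2 days, was compared with the 3 mammary tumors at 1 week by an interaction term. Tumor type, dog and time of biopsy cannot be told apart here, since the sarcoma is 1 tumor. Its early change rests on 1 library at each time and adds no spread of its own, so the errors and p-values assume that it varies like the other libraries. VCAM1 had the largest difference of the early changes, −4.47 ± 1.29 on the log2 scale in the sarcoma relative to the mammary tumors. Its adjusted p was 0.105 in edgeR's quasi-likelihood test. It was the 1 of 9 genes lower at an unadjusted p under 0.05, beside 7.68% of all genes, and 0 of 9 passed the adjusted threshold, as did 0% of all genes. DESeq2's adjusted p for VCAM1 was 0.00844, the lowest of a range up to 0.132 over the alternatives, beside 17.1% of all genes called. In edgeR it was also called with no filter on low counts, beside 4.27% of genes, and without tumor BM, beside 9.38%. SELE had an interaction of 3.56 ± 2.01 (adjusted p = 0.299), and the 5 endothelial genes lay between −1.29 for PECAM1 and −0.24 for CDH5, each with an adjusted p of 0.467 or more. In the 2-day RV biopsy mesenchymal genes had a median log2 difference of −2.82 and epidermis markers of 7.74. The part of these tissue markers in the RV values was not tested.

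At the late RV time point both sites can be compared as a pair of libraries without replicates. The adjacent site exceeded the injection site 3.39-fold for PECAM1, 3.22-fold for SELP, 3.19-fold for CDH5 and 2.81-fold for KDR. VWF and VCAM1 were 1.85-fold and 1.75-fold higher there, ICAM1 1.30-fold, and TEK was at 0.763-fold. The median absolute log2 difference of all tested genes between these sites was 0.48, beside 1.76 for PECAM1 and 0.39 for TEK.

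In a list of 25 further endothelial genes, all 25 were higher early in the fit, 17 at an unadjusted p under 0.05 and 16 in 4 of 4 tumors, with 0 past the adjusted threshold and a median log2 difference of 1.43. Over all genes tested, 7.70% were higher early at an unadjusted p under 0.05 and 10.8% in 4 of 4 tumors. The median over all genes was 0.25, and these values stand beside each list below as well. ECSCR, a small endothelial surface protein, was at 2.12 ± 0.48 (adjusted p = 0.154), ROBO4, a guidance receptor of endothelium, at 2.78 ± 0.75 (0.210), and TIE1, the orphan partner of TEK, at 2.46 ± 0.72 (0.261). The summed level of the list was 218 to 538 CPM before treatment, 335 to 1610 CPM early and 234 to 717 CPM late. By tumor the sum did not follow the median gene throughout, since in RV it was 538 CPM before treatment and 450 CPM early, and in CL caudal 301 and 335 CPM. Late against before, 14 of 25 were higher and 11 lower, at a median of 0.32.

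In the VEGF and angiopoietin system, the growth factors and receptors around KDR and TEK, 12 of 14 genes were higher early, 4 of them at an unadjusted p under 0.05, at a median of 0.48. TIE1, PTPRB, the phosphatase that acts on TEK, at 1.43 ± 0.51, and FLT1, VEGF receptor 1, at 1.09 ± 0.45, had the smallest p-values, and none of the 14 passed the adjusted threshold. TIE1, PTPRB and FLT1 also belong to the list of further endothelial genes above, so the 2 lists are not separate evidence. FLT4 is likewise shared with the lymphatic list below. Pericyte and mural cell genes, which mark the cells around the endothelial tube, had a median of 0.21, near the 0.25 over all genes tested. In this list 8 of 10 were higher and 1, ABCC9, at an unadjusted p under 0.05 (1.31 ± 0.54), beside 7.70% of all genes. The mural medians were −0.78, −0.23, 1.68 and 1.69 in RV, CL cranial, CL caudal and BM, so in RV and CL cranial the endothelial genes were higher early while the median mural gene was not.

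Lymphatic endothelial genes had a median early log2 difference of 2.33, with 7 of 7 higher, 5 at an unadjusted p under 0.05 and 0 past the adjusted threshold. CCL21, the chemokine of lymphatic vessels and lymphoid stroma, was at 4.90 ± 1.22, MMRN1 at 4.40 ± 1.19 and LYVE1, a hyaluronan receptor, at 1.97 ± 0.56. The list was highest in the 1-week BM biopsy, at 2270 CPM summed, the same library in which PECAM1, VWF and TEK were highest. In CL caudal its median was −0.33.

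On the leukocyte side, the counter-receptors of the adhesion molecules were higher early for 9 of 11 tested genes, 7 at an unadjusted p under 0.05 and 0 past the adjusted threshold, at a median of 2.06. The summed level of this list was lower early in RV, at 1460 against 1640 CPM, and in CL caudal, at 1340 against 1460 CPM. In CL cranial and BM the sum was higher early. ITGB2, the shared subunit of the integrins that bind ICAM1, was at 3.29 ± 0.61 (adjusted p = 0.117), ITGAM, the alpha subunit of Mac-1, at 2.61 ± 0.58 and ITGB7 at 2.06 ± 0.47 (0.154 for both). Pan-leukocyte genes were higher for 8 of 8, 7 of them at an unadjusted p under 0.05, at a median of 1.89, with LCP1, PTPRC and CORO1A at 2.31, 1.95 and 2.44. Their summed level was 295 to 481 CPM before treatment, 695 to 2270 CPM early and 230 to 877 CPM late. In CL caudal the early pan-leukocyte median was 0.26, with 5 of 8 genes higher. Macrophage genes were higher for 10 of 10, 9 of them at an unadjusted p under 0.05, at a median of 1.77, and CD163 at 2.84 ± 0.40 had the smallest adjusted p of the named genes, 0.0930. CD14 was at 2.62 and MSR1 at 1.73. With the mean of the pan-leukocyte genes as a covariate, added after the data were seen, the early log2 differences of the endothelial genes were 3.12 for VWF, 3.01 for CDH5, 2.59 for PECAM1, 2.07 for KDR and 0.80 for TEK. Those of the inducible genes were 3.50 for SELP, 2.03 for VCAM1, 0.83 for ICAM1 and 0.47 for SELE, so each group held genes above and genes below their values without the covariate.

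Among the cytokines and receptors that induce adhesion molecules on endothelium, 9 of 10 tested genes were higher early, 4 at an unadjusted p under 0.05 and 0 past the adjusted threshold, at a median of 1.84. IL4R was at 2.28 ± 0.41 (adjusted p = 0.117), TNFRSF1B at 2.86 ± 0.56 (0.124) and TNFRSF1A at 1.59 ± 0.33 (0.142), the last 2 being the receptors of TNF. By tumor the medians were 3.51, 1.28, −0.10 and 0.90 in RV, CL cranial, CL caudal and BM.

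Further adhesion and junction genes were higher early for 8 of 10, 3 at an unadjusted p under 0.05, at a median of 0.63. ACKR1, the chemokine-binding protein of venules, was at 3.20 ± 0.82, ICAM2, a constitutive endothelial ligand of LFA-1, at 1.76 ± 0.49, and FUT7, which makes selectin ligands in leukocytes, at 1.77 ± 0.58, with adjusted p of 0.192, 0.229 and 0.304. Platelet genes, relevant to VWF and SELP, were higher for 5 of 5 with 0 at an unadjusted p under 0.05. ITGA2B, ITGB3 and GP6 were at 1.36, 0.66 and 0.84, and the summed level of the list was 7.65 to 27.9 CPM before treatment and 6.15 to 52.8 CPM early.

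For the tissues around the vessels, no list differed in one direction in all 4 tumors. Epidermis genes had a median log2 difference of 1.55 early, with LORICRIN at 3.64, KRT10 at 1.32 and SBSN at 1.55, and medians from −4.62 in BM to 7.74 in RV. Epithelial genes had a median of 0.47, with KRT18, ELF3 and KRT8 at 1.03, 0.70 and 0.71. Mesenchymal and fibroblast genes had a median of −0.15, with THY1, PDGFRB and COL1A1 at 0.91, 0.78 and −0.74, and medians of −2.82 in RV and 3.55 in BM. Their part in the values of the 9 genes was not tested.

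**Figure D4:**
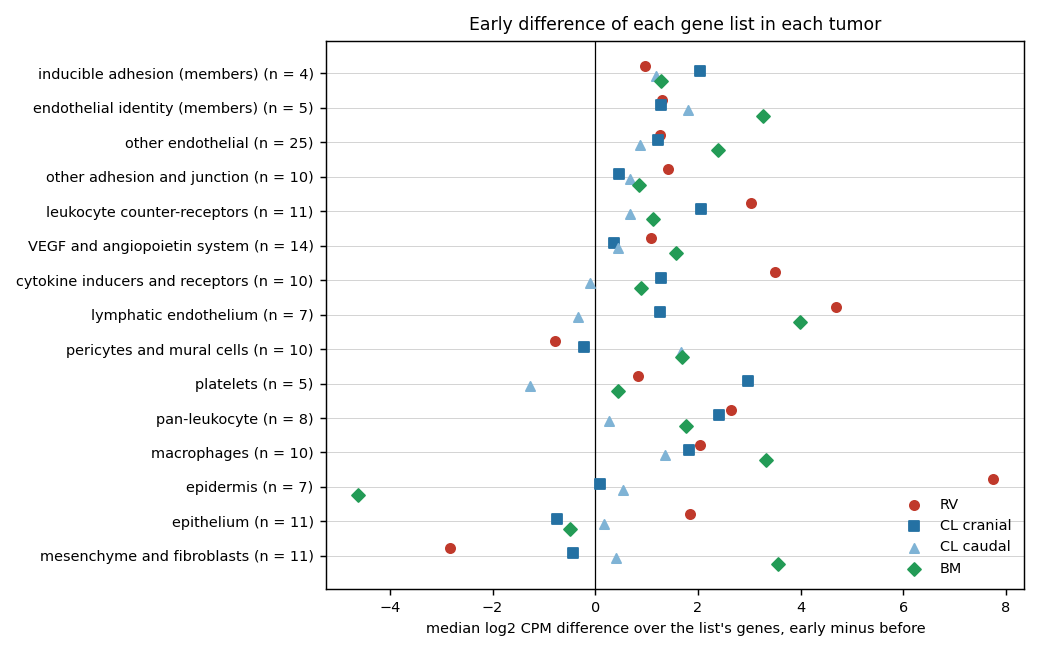
Median log2 CPM difference early against before over the tested genes of each list (horizontal axis), with 1 point per tumor and n genes per list (vertical axis). The endothelial identity, further endothelial and macrophage lists lie above 0 in all 4 tumors. So do the inducible, further adhesion, counter-receptor, VEGF and pan-leukocyte lists, although the pan-leukocyte list is only at 0.26 in CL caudal. The lymphatic list is at −0.33 in CL caudal. Epidermis and mesenchyme genes lie on both sides, at 7.74 and −2.82 in RV and at −4.62 and 3.55 in BM.

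Across the 13 libraries, with each tumor's mean removed, the 5 endothelial genes followed each other with Pearson r of 0.599 to 0.956 over 10 pairs, median 0.843. ICAM1 had r of 0.638 to 0.801 with them, SELP 0.589 to 0.864 and SELE 0.438 to 0.589, and ICAM1 followed SELE most closely, at 0.914. VCAM1 had r of −0.195 to 0.189 with the endothelial genes and −0.629 with SELE. These are descriptions over libraries that share tumors and depth, without a test.

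The genes most like each member by the same measure were found among all tested genes with a symbol. PECAM1 and VWF were each other's nearest gene at 0.956. ARHGEF15, a guanine nucleotide exchange factor of endothelium, was nearest to CDH5 at 0.976 and second nearest to KDR at 0.966, after USHBP1 at 0.975. TEK was followed by DCAF17_2, CLEC4G and LMO2 at 0.952, 0.949 and 0.947. After PECAM1, VWF was closest to CD163 at 0.945 and SLC43A3 at 0.942, while PECAM1 was next to MSN at 0.927 and DIPK2B at 0.926. CDH5 came with TEAD4 and GAS7 at 0.968 and 0.964, and KDR with CDH5 itself at 0.955.

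The inducible genes had other neighbours. SELE was followed by BIRC3, an inhibitor of apoptosis, at 0.974, GBP1, a guanylate-binding protein, at 0.97 and ZDHHC18 at 0.967. ICAM1 was followed by PDE4C, GAB3 and GALNT6 at 0.963, 0.961 and 0.958, and SELP by FMO4, PIM1 and TRAF3IP3_2 at 0.934, 0.917 and 0.905. VCAM1 was nearest to CYP27A1, IDH1 and EPS15, at 0.965, 0.951 and 0.946. When tumor means were left in, 7 of the 27 pairs were still among the 3 nearest.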

How the data were processed

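RNA was measured in 13 libraries grouped by the time labels and tied to tumors by the labels. Strand-specific reads were aligned by the authors to CanFam4.0 (Strand NGS), and the deposited values are unnormalized counts for each gene symbol. The counting rule and annotation release are not given in the sources used here. Gene positions and IDs were matched by symbol to RefSeq's UU_Cfam_GSD_1.0 table for 9 of 9 members. No sequence or transcript length was used here, so the planned comparison of levels between genes per kilobase was not made and no sequence is printed.

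Genes were filtered with filterByExpr (minimum count 10), and 20118 of 43427 were tested in edgeR 4.0.16 (R 4.3.3, limma 3.58.1) with TMM, robust quasi-likelihood fits on all 13 libraries, and tumor and time group as factors (7 residual degrees of freedom, common biological coefficient of variation 0.672). A model with a sarcoma-by-early term tested the interaction. The Benjamini-Hochberg adjustment ran over all genes tested, with 0.05 as the threshold. P-values over biopsies of 3 dogs measure the spread between these biopsies. Log2 CPM used a prior count of 2. For late RV, differences within a tumor took the mean log2 CPM of the 2 sites, and ratios took their pooled counts. Ratios of low counts have 95% exact intervals that cover counting error alone, because without molecular identifiers reads do not count independent molecules, and 3 counts were taken as the floor of detection. Totals of 11622444 to 29931125 counts set the depth.

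The pairing comes from the tumor, since a tumor's biopsies were taken from 1 mass. Deviations from the group means correlated at a mean of 0.229 (−0.0534 to 0.481) between the before and early libraries of the same tumor and −0.0707 between different tumors. Each pair of libraries differed beyond sampling noise (smallest chi-square per degree of freedom 44.5).

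The members and the gene lists were chosen with earlier results of these data known. All 9 members are named, with the up to 3 genes per list with the smallest early p-value and the 3 genes per member with the highest tumor-centred Pearson r. The alternatives were DESeq2 size factors, no filter, DESeq2 1.42.0 in place of edgeR, no replicate block, the dog as block, each tumor left out, late RV sites summed, only the libraries of the compared times, and for the relative values a prior count of 0.5 and other endothelial means. Leaving out the 2-day RV or the 1-week BM library, covariates for endothelial or leukocyte genes, and leaving each tumor out of the relative means were added after the data were seen.

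The models were tested on simulated counts for early against before in 20118 genes. At the spread of these data edgeR recovered 17 of 100 genes changed by a log2 fold change of 2 and 38 of 100 changed by 3, with 3 false calls, and DESeq2 38 and 70 with 79 false calls. At a coefficient of variation of 0.2 edgeR recovered 99 and 100 with 12 false calls, and DESeq2 99 and 99 with 18. Python 3.11.15 with numpy 2.4.6, pandas 2.3.3, scipy 1.17.1 and matplotlib 3.10.9 was used for the rest.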

Additional observations from a re-analysis of the deposited data

Results flagged for a closer look

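In 3 of the 27 groups of libraries, each a gene in a time group, 1 library stood apart from the others by Dixon's criterion, where chance flags about 1 in 20 groups, or 1.35 here. All 3 were the CL caudal tumor at the low end. Its early SELE level was 0.68 log2 CPM, its early SELP level −0.50 log2 CPM and its PECAM1 level before treatment 3.88 log2 CPM.

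Both CL tumors moved one way and another dog's tumor the opposite way in 7 of 36 comparisons of the log2 CPM difference from before treatment, and these differences were not tested. How many of the 36 would do so with signs at random was not computed. Early, SELE was higher in both CL tumors and at −0.25 in BM. Late, SELE was above 0 in both CL tumors, at 0.0033 in CL cranial, and at −0.038 in RV and −1.11 in BM. The ratio intervals for counting error spanned no difference in CL cranial, 0.264 to 3.33, and in RV, 0.205 to 5.93. In CL caudal and BM they did not. Late SELP was below 0 in both CL tumors and at 0.12 in RV. Late VWF was lower in both CL tumors and at 0.23 in RV and 0.64 in BM. Late KDR was lower in both and at 0.42 in BM.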

How the results depend on the processing

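Log2 fold changes are edgeR's unless DESeq2 is named, and 555 of the 642 recomputed values kept their direction and side of the threshold or moved by less than the spread (counts by less than 1.5 times). Early against before, 6 members passed an adjusted p of 0.05 with DESeq2, which made more false calls on simulated data, and 0 otherwise. The 6 genes' largest adjusted p over the alternatives ran from 0.661 for CDH5 to 0.981 for VWF, both in edgeR. The value for VWF came with other endothelial genes as a covariate, and its next largest was 0.514, without tumor RV. Members at an unadjusted p under 0.05 numbered 8 as reported, 4 without the replicate block, 5 with only the libraries of the 2 times, 2 with other endothelial genes as a covariate (SELE higher, at 6.78, and VCAM1 lower), 5 with pan-leukocyte genes as a covariate, and 5 to 7 when a tumor was left out, 5 without BM. Late against early, members past the adjusted threshold numbered 2 with no filter, 8 with DESeq2, 3 without the 1-week BM library and 1 with the leukocyte covariate, and at an unadjusted p 5 without the block, 3 with the endothelial covariate (ICAM1 and SELE lower, at −1.57 and −5.99, and VCAM1 higher, at 5.76) and 5 to 8 when a tumor was left out, 5 without BM. Late against before, 1 member had an unadjusted p under 0.05 with only the libraries of the 2 times, without the 2-day RV library and with the leukocyte covariate. For the sarcoma against the mammary tumors, 1 member passed the adjusted threshold with no filter, with DESeq2 and without tumor BM (0 to 1 over the tumors left out), and 2 passed unadjusted with DESeq2 and 1 to 2 when a tumor was left out. The shares of all genes at an unadjusted p under 0.05 were not computed for the alternatives. The unadjusted counts above therefore show how the calls move with the setting and are not results about the members. The cause of these differences was not tested.

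Signs turned for late values near 0, for VCAM1, for some members under the endothelial covariate and for some distances from the endothelial mean. VCAM1 early was −0.17 without the 1-week BM library, −4.89 with the endothelial covariate and −0.37 to 1.03 when a tumor was left out, and late against early it was −0.24 with the leukocyte covariate and −0.15 to 1.62 when a tumor was left out. With the endothelial covariate, which itself differs with time, early SELP was −0.81 and PECAM1 −0.61, against 2.06 and 1.95 as reported, late against early PECAM1 was 0.53, against −1.66, and late ICAM1, SELE, PECAM1, VWF and TEK were 0.030, 0.79, −0.078, −0.37 and −0.030. With the leukocyte covariate, late CDH5, KDR and TEK were 0.079, 0.064 and −0.13. Late SELE was 0.040 with the dog as block, 0.13 with the late RV sites summed, 0.033 with only the 2 times, and 0.11 without either the 2-day RV or the 1-week BM library. Late VWF was −0.043 with DESeq2 size factors, −0.042 with DESeq2, −0.035 with no filter, −0.082 with the dog as block, −0.055 with the sites summed, −0.096 with only the 2 times and −0.074 without the 2-day RV library. Without the replicate block, late SELP was 0.46 and CDH5 0.17. When a tumor was left out, the late ranges were −0.33 to 0.13 for ICAM1, −0.68 to 0.59 for SELE, −0.58 to 0.37 for CDH5, −0.24 to 0.25 for VWF, −0.28 to 0.052 for KDR and −0.083 to 0.24 for TEK, and the sarcoma interaction ranged from −1.21 to 0.40 for CDH5 and from −1.08 to 0.54 for TEK. The block changed no other sign or adjusted call. Every inducible gene's distance from the endothelial mean moved by less than its SD between tumors, a wide measure at 2.99 for early SELE. When a tumor was left out, the early distance ranged from −0.52 to 1.72 for SELE and from −2.54 to −0.84 for VCAM1. The late distance then ranged from −0.30 to 0.43 for ICAM1 and from −0.355 to 0.76 for SELE. With other endothelial genes in place of the 5, the early distance of SELP was 0.11, against −0.32. Low counts of SELE, SELP and CDH5, 2 to 5 in several libraries, limit their ratios.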
